A study of Mus musculus with 6 samples.

Results

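The genes described here are 10 transcripts that rise when a T cell engages antigen: the nuclear receptors Nr4a1, Nr4a2 and Nr4a3, the zinc finger factors Egr1, Egr2 and Egr3, the EGR corepressor Nab2, the phosphatases Dusp2 and Dusp5, and Spry1, an inhibitor of Ras signalling. They were taken by symbol from a deposited table of 32801 genes, and all 10 were found there and passed the filter on low values. The RNA came from thymic regulatory T cells (Treg) of mice aged 3 weeks, sorted as GFP- CD4+CD8- Thy1.1+, with 3 libraries from NOD mice, which develop autoimmune diabetes, and 3 from C57BL/6 (B6) mice. The labels record no treatment, and they do not say what GFP and Thy1.1 report, which other alleles the mice carried, or whether each library came from its own animal. Each p-value therefore reflects how far these samples lie apart, a spread that may be technical. Values are read counts that the authors scaled by library and rounded, called normalized counts below, and libraries are named by strain and by the number in the column header.

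A T cell receptor that binds its ligand sets off calcium entry and the Ras-ERK kinase cascade, and within minutes both reach the promoters of immediate early genes. NR4A receptors are orphan receptors whose activity follows their amount, and in the thymus they favour Treg formation and the deletion of self-reactive cells. EGR factors drive many later response genes, while NAB2 holds them back, and DUSP and Sprouty proteins shut the ERK cascade down again. The transcripts of these genes are short-lived, so their amount in a sorted cell follows recent signalling and also handling before lysis.

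Treg of NOD mice held less Nr4a2 and Nr4a3 RNA and more Spry1 RNA than Treg of B6 mice, and the other 7 members did not pass the test. Nr4a2 was 2.06-fold and Nr4a3 1.72-fold lower in NOD, and Spry1 was 1.49-fold higher (n = 3 per strain, limma adjusted p of 0.002, 0.0027 and 0.022). Of the 10 members, 2 were called lower and 1 higher, where 5.3% and 4.59% of all 16442 tested genes were called in those directions (9.89% in either). The median log2 fold change of the members was -0.31, beside 0.01 for all tested genes, and with so few genes this describes the members and tests nothing.

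Promoter sequences are shown for the NR4A family, in which the strains differed most, for Dusp5, the member with the highest level per length, and for Spry1, the member that rose. RefSeq (GRCm38.p6, the assembly that mm10 names) gave a promoter window of 300 bases for 8 of the 10 members. It reaches from 250 bases before the start of transcription to 50 after. The stretches below run 5′ to 3′ on the strand of the gene and stop before the first base that GENCODE M21 annotates as exon, or at the start site. Capitals mark matches to the motifs searched on both strands.
Nr4a1: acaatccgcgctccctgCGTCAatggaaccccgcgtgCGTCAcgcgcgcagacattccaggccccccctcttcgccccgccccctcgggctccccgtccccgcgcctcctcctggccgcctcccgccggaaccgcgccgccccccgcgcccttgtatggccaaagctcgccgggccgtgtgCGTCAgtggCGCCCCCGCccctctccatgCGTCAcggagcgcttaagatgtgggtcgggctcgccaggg
Nr4a2: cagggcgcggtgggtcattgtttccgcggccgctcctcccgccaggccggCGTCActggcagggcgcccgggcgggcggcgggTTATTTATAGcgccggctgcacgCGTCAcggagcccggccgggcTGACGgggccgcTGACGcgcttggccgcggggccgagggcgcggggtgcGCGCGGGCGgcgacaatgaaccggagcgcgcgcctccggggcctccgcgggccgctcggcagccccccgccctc
Nr4a3: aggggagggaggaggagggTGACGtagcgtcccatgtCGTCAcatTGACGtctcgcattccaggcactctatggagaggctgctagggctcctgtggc
Dusp5: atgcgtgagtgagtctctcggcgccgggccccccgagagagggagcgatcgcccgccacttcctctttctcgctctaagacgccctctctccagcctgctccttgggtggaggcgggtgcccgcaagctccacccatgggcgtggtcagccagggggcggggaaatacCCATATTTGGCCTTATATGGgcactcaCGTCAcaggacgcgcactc
Spry1: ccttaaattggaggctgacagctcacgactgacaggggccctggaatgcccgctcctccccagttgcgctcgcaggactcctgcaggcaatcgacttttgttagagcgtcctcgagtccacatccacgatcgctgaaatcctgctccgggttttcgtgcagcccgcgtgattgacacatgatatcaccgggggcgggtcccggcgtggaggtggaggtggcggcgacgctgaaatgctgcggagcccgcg
They lie at chr15:101266596-101266845 (plus strand), chr2:57124004-57124253 (minus), chr4:48045055-48045152 (plus), chr19:53528895-53529108 (plus) and chr3:37639697-37639946 (plus).

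The capitals are the CRE half-site TGACG, to which CREB and ATF factors bind, the EGR motif GCGNGGGCG, the CArG box of serum response factor and the MEF2 box. No capitals overlap between motifs. The windows of Nr4a1, Nr4a2 and Nr4a3 each held 4 CRE half-sites, of which the last one of Nr4a3 lies beyond the stretch printed, in an annotated exon. Of all 27025 mouse promoter windows of that length, 21% held at least 1 such half-site and 0.252% held 4 or more. Nr4a1, Nr4a2 and Dusp2 each held an EGR motif, found in 5.55% of all windows. A MEF2 box stood in the Nr4a2 window only among the 8 members (3.26% of all windows). Dusp5 held 2 adjacent CArG boxes, and Egr2 held 1 in 4 of its 5 listed windows (1.57% of all windows). The windows of Spry1 and Nab2 held none of the motifs searched. The full CRE TGACGTCA (1.88% of all windows), the NR4A motif AAAGGTCA (1.46%) and the AP-1 motif TGANTCA (7.93%) matched in no member. All windows of the 8 members held more G and C (56% to 81.7% of bases) than the median of all windows (52.7%). The shares above are of all windows, and the shares among windows of like GC content were not computed. These are matches of letters in the B6 reference, and NOD alleles were not read.

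The NR4A receptors are described first. Nr4a2, also known as Nurr1, read 1046, 1089 and 1179 normalized counts in NOD libraries 2, 10 and 18, and 2345, 2934 and 1703 in B6 libraries 4, 12 and 20. The NOD libraries lay close together and all below the lowest B6 library, while the B6 libraries were spread widely. The means were 1105 ± 67.9 and 2327 ± 616 (SD, n = 3), so that the log2 fold change was -1.04 with a standard error of 0.17 (limma adjusted p = 0.002, lower in 3 of 3 NOD libraries). The gene lies on chromosome 2 (57106830 to 57124003, minus strand, mm10).

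Nr4a3, also known as Nor1, read 2512, 2265 and 2955 in the same order of NOD libraries, and 4708, 4859 and 3739 in the B6 libraries. Again no NOD library reached a B6 library. The means were 2577 ± 350 and 4435 ± 608, and the log2 fold change was -0.78 ± 0.13 (SE; limma, adjusted p = 0.0027). It lies on chromosome 4 (48045153 to 48086447, plus strand). Both calls were kept with any single library left out, at adjusted p up to 0.016 for Nr4a2 and 0.022 for Nr4a3.

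Nr4a1, which encodes Nur77, the receptor used in reporter mice to read antigen signals, read 2604, 3290 and 2668 in NOD and 3820, 4156 and 2577 in B6. The strains overlapped, because B6 library 20 lay below every NOD library. The means were 2854 ± 379 and 3518 ± 832, a log2 fold change of -0.28 (95% interval -0.65 to 0.09, limma adjusted p = 0.42). Without B6 library 20 the log2 fold change was -0.49 and passed the test (adjusted p = 0.045), and without B6 library 12 it was -0.14 (adjusted p = 0.78). Nr4a1 lies on chromosome 15 (101254269 to 101274795, plus strand).

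**Figure D1:**
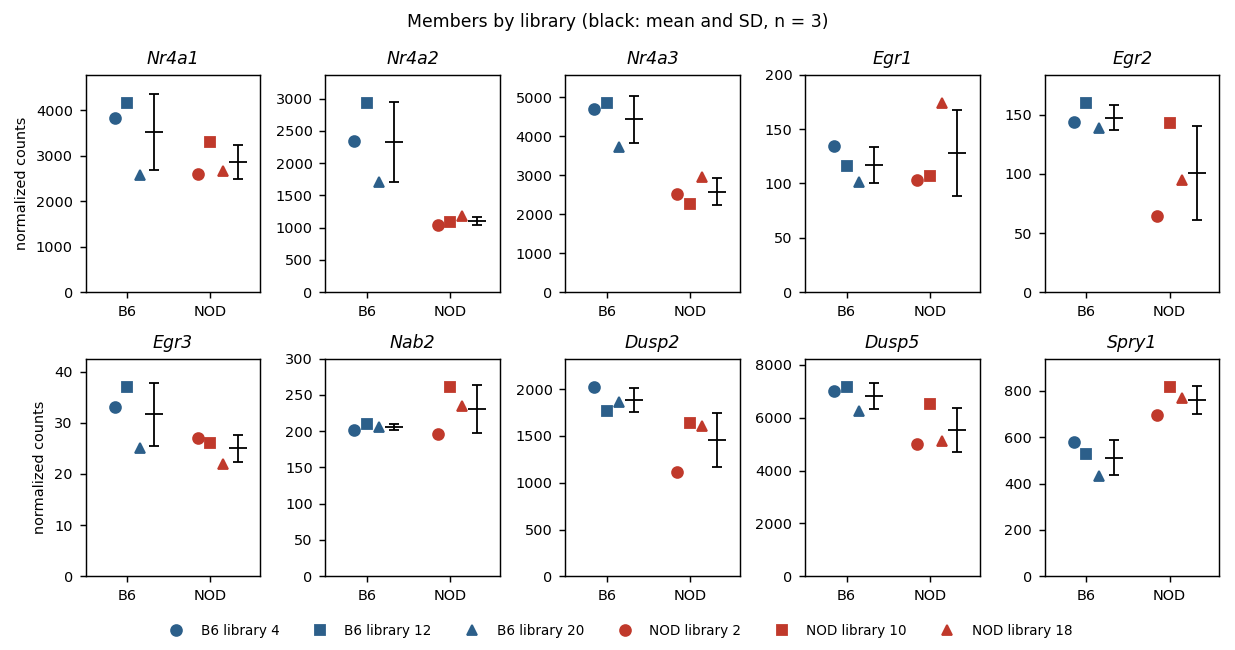
Normalized counts of the 10 members (vertical axes from 0, 1 panel per gene) in the 3 B6 libraries (blue) and the 3 NOD libraries (red), with the mean and SD of each strain in black. For Nr4a2, Nr4a3 and Dusp2 all NOD points lie below all B6 points, for Spry1 all lie above, and for the other 6 genes the strains overlap.

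Whether the receptors differed from each other in their strain difference was examined with ratios inside each library, which do not depend on the scaling. The log2 ratio of Nr4a2 to Nr4a1 was -1.32, -1.59 and -1.18 in NOD and -0.70, -0.50 and -0.60 in B6. The strains did not overlap, and the ratio was lower in NOD by 0.76 on average, so relative to Nr4a1 the NOD cells held less Nr4a2. The exact two-sided permutation test gave p = 0.1, the smallest value that 3 against 3 allows (0.3 after Benjamini-Hochberg adjustment over 6 ratios). The ratio of Nr4a3 to Nr4a1 did not overlap between strains either, with a mean of -0.15 ± 0.35 in NOD and 0.36 ± 0.16 in B6 (n = 3, exact permutation p = 0.1). That difference was -0.50, and -0.31 without NOD library 10. The ratio of Nr4a3 to Nr4a2 overlapped (1.21 ± 0.14 and 0.96 ± 0.21, exact permutation p = 0.2). At this number of libraries none of these differences between receptors could pass the test.

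The EGR factors stood at far lower levels and were not called. Egr2, which restrains T cell activation and is induced with Egr3 by calcineurin and NFAT, read 64, 143 and 95 in NOD and 144, 160 and 139 in B6. NOD library 10 reached the B6 range and the other NOD libraries did not. The log2 fold change was -0.62 (95% interval -1.22 to -0.03, limma adjusted p = 0.22), and among the fits that left out a library it was called only without NOD library 10 (-0.91, adjusted p = 0.03). Without NOD library 2 it was -0.34 (adjusted p = 0.61). Its spread inside a strain, an SD of 0.412 on the log2 scale, was the largest of the members (0.249 at the median of all tested genes). Egr2 lies on chromosome 10 (67535475 to 67542188, plus strand).

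Egr1, the member most widely used as a mark of ERK activity, read 103, 107 and 174 in NOD and 134, 116 and 101 in B6. NOD library 18 alone lay above the B6 range. Its log2 fold change was 0.10 (95% interval -0.43 to 0.63, limma adjusted p = 0.89), and it turned negative without NOD library 18 (-0.15) or B6 library 20 (-0.0047). Egr3 was the lowest member, at 27, 26 and 22 in NOD and 33, 37 and 25 in B6. The groups overlapped through B6 library 20, and the log2 fold change was -0.32 (95% interval -1.02 to 0.39, limma adjusted p = 0.68). Egr1 lies on chromosome 18 (34859823 to 34864984) and Egr3 on chromosome 14 (70077203 to 70082614). The intervals of these 3 factors were the widest among the members. At an unadjusted p below 0.05, limma held 1 of the 3, Egr2, where 20.3% of all tested genes lay below that value. At an adjusted p below 0.05 the authors' deposited table called 0 of the 3. The ratios among EGR factors overlapped between strains in each case (exact permutation p of 0.2 to 0.4, n = 3). That of Egr3 to Egr2 changed sign without NOD library 2.

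**Figure D2:**
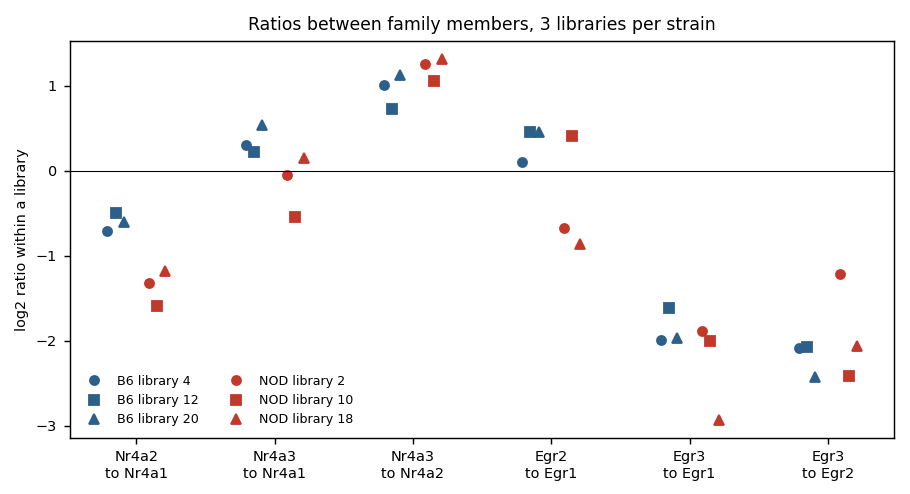
The log2 ratio of 1 family member to another inside each library (vertical axis) for the 3 NR4A and 3 EGR pairs (horizontal axis), B6 in blue and NOD in red. Nr4a2 to Nr4a1 lies between -1.59 and -1.18 in NOD and between -0.70 and -0.50 in B6, and the EGR ratios overlap.

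Nab2, which binds EGR factors and represses their targets, read 196, 261 and 235 in NOD and 202, 210 and 206 in B6. The B6 libraries were nearly equal (206 ± 4) and lay inside the NOD range (231 ± 32.7), with a log2 fold change of 0.15 (95% interval -0.21 to 0.51, limma adjusted p = 0.70). Nab2 lies on chromosome 10 (127660918 to 127668568, minus strand) and overlaps 3 genes on the other strand. Its last exon shares 40 bases with Stat6, which is far more abundant, at 4333 to 5388 normalized counts. Whether the counting used strand is not given in the sources used here, so part of the Nab2 value could be reads of those genes, and this was not tested. Dusp5 and Spry1 also share 547 and 710 exon bases with antisense transcripts.

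The ERK phosphatases were lower on average in NOD, both at an unadjusted limma p below 0.05 (20.3% of all tested genes), and did not pass at an adjusted p in limma or in the authors' deposited table. Dusp2, a nuclear phosphatase of the MAP kinases, read 1119, 1638 and 1605 in NOD and 2024, 1763 and 1865 in B6. No NOD library reached the B6 range, and NOD library 2 lay lowest. Its log2 fold change was -0.39 (95% interval -0.72 to -0.07, limma adjusted p = 0.15), and -0.21 without NOD library 2 (adjusted p = 0.48). Dusp5, a nuclear phosphatase selective for ERK, read 5004, 6505 and 5123 in NOD and 7024, 7159 and 6239 in B6. NOD library 10 lay above B6 library 20. The log2 fold change was -0.30 (95% interval -0.57 to -0.03, limma adjusted p = 0.18), and the gene was called without NOD library 10 (-0.42, adjusted p = 0.025). Dusp2 lies on chromosome 2 (127336159 to 127338376) and Dusp5 on chromosome 19 (53529109 to 53542431).

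Spry1 went the other way. It read 697, 817 and 771 in NOD and 579, 526 and 431 in B6, so that every NOD library lay above every B6 library. The means were 762 ± 60.5 and 512 ± 75, and the log2 fold change was 0.58 with a standard error of 0.14 (limma adjusted p = 0.022). Omitting NOD library 18 ended the call (adjusted p = 0.091), as did omitting B6 library 12 (0.06) or 20 (0.059), and the difference stayed between 0.46 and 0.67 over the omission of each library. Spry1 lies on chromosome 3 (37639947 to 37644598, plus strand) and the gene across from it, Gm42922, read 0 to 5. Counting by separation alone, NOD lay wholly below B6 for 3 members (Nr4a2, Nr4a3 and Dusp2) and wholly above for 1, where 11.9% and 12.1% of tested genes did so (24.1% in either direction).

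**Figure D3:**
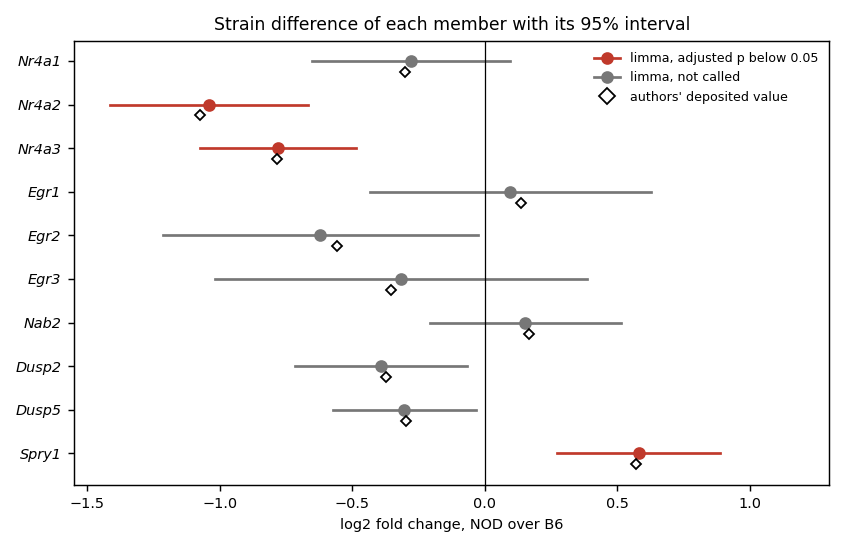
The log2 fold change of NOD over B6 (horizontal axis) for each member, with limma's estimate and 95% interval (red where called at an adjusted p below 0.05, grey where not) and the authors' DESeq2 value as an open diamond. Nr4a2 (-1.04), Nr4a3 (-0.78) and Spry1 (0.58) are the called members, and the diamonds lie close to the limma estimates.

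The authors' deposited table also holds a DESeq2 comparison of the strains. In the authors' deposited table the log2 fold changes were -1.08 for Nr4a2 (their adjusted p = 5.19e-05), -0.78 for Nr4a3 (0.011) and 0.57 for Spry1 (0.026), and these were the 3 members with an adjusted p below 0.05 there. Of 21988 genes with an adjusted p in the authors' deposited table, 4.68% were called higher and 5.06% lower (9.75% in either direction). All 10 members had the same sign as in limma, which was fitted to library values from that same table, so the results are not independent. The mean that the authors' deposited table gives for Nr4a1, 5067, is above all 6 of its library values, as are those for Egr1 (332) and Egr3 (67.7). That column therefore does not rest on these libraries alone. Whether other libraries also entered the authors' fold changes and adjusted p is not given in the sources used here.

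Levels between genes were compared per kilobase of annotated exon. The order was the same in both strains. In NOD, Dusp5 stood highest at 2242 ± 337 normalized counts per kilobase (SD, n = 3), then Nr4a1 (813 ± 108), Dusp2 (726 ± 145), Nr4a3 (430 ± 58.4), Nr4a2 (272 ± 16.7), Spry1 (262 ± 20.8), Nab2 (78.4 ± 11.1), Egr2 (29.6 ± 11.7), Egr1 (28.5 ± 8.9) and Egr3 (5.67 ± 0.60). Neighbours whose spread overlapped in NOD were Nr4a1 and Dusp2, Nr4a2 and Spry1, and Egr2 and Egr1. In B6, Nr4a2 (573 ± 152) lay nearer to Nr4a3 (741 ± 102), with overlapping spread, and well above Spry1 (176 ± 25.8). Nr4a1 thus stood far above Egr1 per kilobase in both strains.

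Some libraries held the same place within their strain for most members. B6 library 20 was the lowest of its strain for 8 of the 10 members, where it was lowest for 35.1% of all tested genes, and NOD library 2 was the lowest of its strain for 8 members (28.4% of all tested genes). NOD library 10 was the highest of its strain for 6 members (39% of all tested genes) and B6 library 12 for 7 (30% of all tested genes). AP-1 and stress genes, which rise with sorting and handling as well as with signalling, were placed alike. B6 library 20 was the lowest of its strain for 12 of 16 such genes, NOD library 2 for 9 of 16, and NOD library 10 was the highest for 14 of 16. Junb, an AP-1 subunit, read 1622, 7118 and 2014 in NOD and 7355, 7250 and 3445 in B6. Members did not all follow these places. Nr4a3 was lowest of its strain in NOD library 10, and Egr3 was highest of its strain in NOD library 2. NOD library 18 was the highest of its strain for 3 members, Nr4a2, Nr4a3 and Egr1 (27.3% of all tested genes). The part of handling in the members' values was not tested. The 10 members summed to 13372 to 16141 normalized counts per library in NOD and 17025 to 21920 in B6.

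Genes related to the members were read from lists of family members, signalling steps and responses. None of the 3 tested genes of the same families or their partners was called: Nab1, the other NAB corepressor, read 4036 ± 421 in NOD and 3210 ± 235 in B6 (limma adjusted p = 0.10), and Egr4 and Rxrg were too low to be tested. At an unadjusted p below 0.05, limma held 1 of those 3 (20.3% of all tested genes), and at an adjusted p below 0.05 the authors' deposited table called 0. None of 12 tested ERK feedback genes besides the members was called, with a median log2 fold change of -0.18, 5 genes at an unadjusted limma p below 0.05 (20.3% of all tested genes) and 0 called at an adjusted p in the authors' deposited table. Dusp4, a phosphatase of ERK, read 6136, 11110 and 7430 in NOD and 12363, 13000 and 11116 in B6 (-0.61, limma adjusted p = 0.063). The strains did not overlap there, but NOD library 10 and B6 library 20 were nearly equal. Spry2, the paralog of Spry1, read 61, 38 and 77 in NOD and 137, 94 and 85 in B6, opposite in sign to Spry1 and not called (-0.86, limma adjusted p = 0.11). Without NOD library 10, 2 genes of that list, Dusp4 and Ier3, were called lower, and with TMM rescaling 1 was, Dusp1 (-0.33, adjusted p = 0.047).

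None of the 18 genes of the Ras-ERK cascade was called by limma, and 1 was without NOD library 10. Their median log2 fold change was 0.01, and 2 genes lay at an unadjusted limma p below 0.05 (20.3% of all tested genes). The authors' deposited table called 1 gene of that list lower and 0 higher (5.06% and 4.68% of all genes there). Of 15 calcineurin and NFAT pathway genes 1 was called, Cabin1, a calcineurin inhibitor that also represses MEF2. It stood at 1304 ± 231 in NOD and 1831 ± 88.3 in B6 (log2 fold change -0.51, limma adjusted p = 0.039), and the call was lost without NOD library 18 or any one of the B6 libraries (adjusted p of 0.062 to 0.16). Over all tested genes, limma called 4.59% higher and 5.3% lower. At an unadjusted p below 0.05, limma held 3 of the 15 (20.3% of all tested genes). The authors' deposited table called 1 gene of that list higher and 2 lower (4.68% and 5.06% of all genes there). Rcan1, a gene induced by NFAT, read 45 ± 10.5 and 71 ± 8.19 and was not called (limma adjusted p = 0.18). Of 12 factors that act on early gene promoters, Elk3, a ternary complex factor, rose (1142 ± 60.5 against 752 ± 90.7, log2 fold change 0.61, limma adjusted p = 0.0073). Mkl1, a coactivator of serum response factor, fell (1489 ± 80.4 against 1918 ± 18.4, -0.37, adjusted p = 0.039), a call kept only without NOD library 10 among the 6 omissions. Creb1, Mef2d and Srf were not called (adjusted p of 0.28 to 0.90). In limma, 3 of the 12 factors lay at an unadjusted p below 0.05 (20.3% of all tested genes). Among the 12, the authors' deposited table called 1 higher and 0 lower (4.68% and 5.06% of all genes there). The fall of Mkl1 was therefore not called there.

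Of 16 tested genes known as EGR2 or EGR3 targets in T cells 1 was called, Tnfrsf9, the costimulatory receptor 4-1BB, at 6176 ± 1298 in NOD and 10476 ± 1167 in B6 (log2 fold change -0.78, limma adjusted p = 0.0057). The list's median was -0.17, and 7 of its genes lay at an unadjusted limma p below 0.05 (20.3% of all tested genes). The authors' deposited table called 1 higher and 1 lower (4.68% and 5.06% of all genes there). Lag3 and Cblb, an inhibitory receptor and an E3 ligase of that list, read 272 ± 84.4 and 9433 ± 543 in NOD against 206 ± 21.4 and 10028 ± 835 in B6 and were not called (adjusted p = 0.46 and 0.74). Without B6 library 20, 3 genes of the list were called lower. None of 8 Treg genes tied to NR4A receptors was called by limma (median log2 fold change -0.08) and 0 were called in the authors' deposited table. At an unadjusted p below 0.05, limma held 1 of the 8 (20.3% of all tested genes). Foxp3, whose gene NR4A receptors bind, read 2310, 1701 and 2044 in NOD and 2446, 1954 and 1784 in B6, with the ranges overlapping.

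Of 27 other tested genes of the antigen receptor response, 3 rose and 4 fell in limma, with a median log2 fold change of -0.13 (all tested genes, 4.59% higher and 5.3% lower). At an unadjusted p below 0.05, limma held 10 of the 27 (20.3% of all tested genes). The authors' deposited table called 4 genes of that list higher and 2 lower (4.68% and 5.06% of all genes there). Nfkbid, a nuclear IkB protein, read 454, 511 and 470 in NOD and 1756, 1795 and 1315 in B6 (-1.75 ± 0.14, limma adjusted p = 1e-05). Cd83 (-1.01), the NF-kB subunit gene Rel (-0.43) and Tox, a factor of thymic selection (-0.58), also fell, but Tox was not called when NOD library 18 or B6 library 4 or 12 was omitted, and Rel stayed called only with B6 library 20 omitted (adjusted p of 0.062 to 0.19 in the others). Omitting NOD library 18 or B6 library 4 or 12 left 2 lower genes in this list. Rgs1 (0.78), a regulator of chemokine receptor signalling, Icos (0.69) and the pro-apoptotic gene Bcl2l11 (0.53) rose, and Rgs1 lost its call without B6 library 4 or B6 library 20. Cd69 and Cd5, surface marks of receptor signalling, read 3292 ± 754 and 6918 ± 601 in NOD against 2857 ± 563 and 7539 ± 485 in B6 and were not called (adjusted p = 0.63 and 0.60).

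Of the 16 AP-1 and stress genes, Hspa8, a constitutive chaperone, fell (20220, 23124 and 19759 against 37600, 42609 and 38726, log2 fold change -0.92, limma adjusted p = 0.00033). The other 15 were not called, Fos (adjusted p = 0.44), Fosb (0.86) and Jun (0.86) among them, and without NOD library 10 the list held 4 lower genes. Over all 127 tested genes of these 9 lists, members left out, 4 were higher and 8 lower in limma, 9.45% against 9.89% of all tested genes. At an unadjusted p below 0.05, limma held 35 of the 127, and 3 of the 16 AP-1 and stress genes (20.3% of all tested genes). The authors' deposited table called 7 genes of these lists higher and 7 lower (4.68% and 5.06% of all genes there). In the AP-1 and stress list it called 0 higher and 1 lower.

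**Figure D4:**
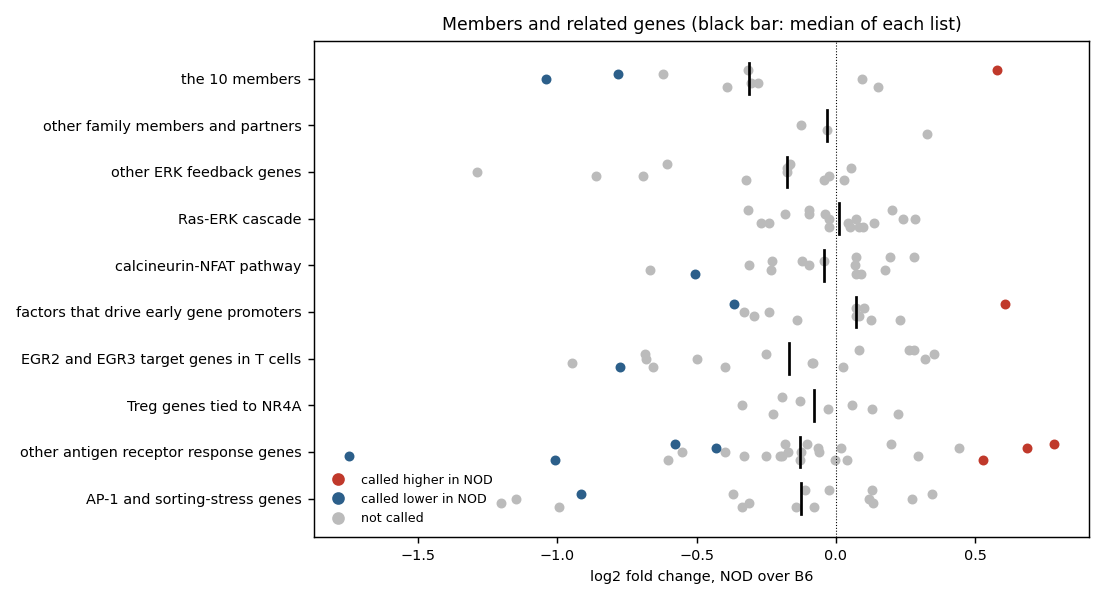
The log2 fold change of NOD over B6 (horizontal axis) for each tested gene of the 10 members and of 9 related lists (rows), red where called higher in NOD, blue where called lower, grey where not called, with each list's median as a black bar. The members' median is -0.31 and those of the other lists lie between -0.18 and 0.07.

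By likeness of profile, the gene nearest to Nr4a2 over the 6 libraries was Adhfe1 (distance 0.25 on the centred log2 scale), and the nearest to Nr4a1 was Btg3, an antiproliferative gene (0.105). Adhfe1 was low, at 9 to 10 normalized counts in NOD and 17 to 33 in B6, and was not called. Nr4a3 had Gm37198 as its nearest gene (0.167), and Egr3 had Zmiz2 (0.145). The nearest genes to the others were 2700029L08Rik for Egr1, Gm42921 for Egr2, Spindoc for Nab2, Xylb for Dusp2, Ap2a1 for Dusp5 and Gm17233 for Spry1. Xylb (8 to 15 normalized counts), 2700029L08Rik (20 to 35) and Gm17233 (19 to 35) were also low. No member was the nearest gene of another, and the nearest member ranked from 41 (for Nr4a2) to 6179 (for Nab2) by distance. Among the members alone, Nr4a2 and Nr4a3 were nearest to each other (0.476), as were Nr4a1 and Egr3 (0.326). These distances rest on 6 libraries and 16442 genes, and a close profile is a description of these libraries.

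The sorted population and its depth bear on these values. The 8 Treg and T cell identity genes summed to 144991 to 167534 normalized counts per library, none was at 0, and limma called 1, Cd3e, higher in NOD. Ctla4, Cd4, Cd3g and Ptprc also lay higher in NOD without overlap and were not called, while Foxp3, Il2ra and Ikzf2 overlapped. Of the 8, 4 lay at an unadjusted limma p below 0.05 (20.3% of all tested genes). These were Cd3e, Cd4 and Cd3g, higher in NOD, and Ikzf2, lower in NOD (log2 fold change -0.34). The authors' deposited table called 3 of the 8 higher and 0 lower (4.68% and 5.06% of all genes there). The sum of 10 markers of dendritic and myeloid cells was lower in NOD, at 539 to 662 against 1061 to 1249 in B6, mostly Cd74 (352 ± 48.0 against 731 ± 70.3). Among them Itgax, a marker of dendritic cells too low to be tested, read 2 to 5 in NOD and 4 to 16 in B6. Lyz2 read 3 to 15 and 13 to 38 (log2 fold change -2.06) and was not called, and both genes overlapped between strains. Fcer1g, too low to be tested, read 3 to 5 in NOD and 6 to 25 in B6, without overlap. Flt3 and Siglech were also too low to be tested, and they overlapped. Xcr1 (74.7 ± 22.1 against 90 ± 5.29), Cd68 (79 ± 12.5 against 89.7 ± 14.3) and Csf1r (17 ± 2 against 19.3 ± 5.51) overlapped as well and were not called. B cell markers (5 genes, 136 to 196), thymic stroma (7 genes, 177 to 324) and NK and innate lymphoid genes (5 genes, 29 to 111) were low and overlapped between strains in their sums. Cd74 and H2-Aa of the dendritic and myeloid list and Tyrobp of the innate list were called lower, while Eomes of the innate list read 76, 21 and 59 in NOD and 17, 16 and 6 in B6 (1.86, limma adjusted p = 0.0501). The sum of 9 genes of double-positive thymocytes overlapped (1383 to 1812), most of it Cd1d1 (968 to 1454). The median log2 fold change of the 7 tested ones was -1.07. Rag1 (-1.07) and Mns1 (-2.11) were called lower in NOD, Dntt (-1.20) and Arpp21 (-1.21) were lower without overlap and not called, and Cd8a was called higher (2.31). The part of such cells in the strain differences was not tested, and fewer cells that respond cannot be told apart from less RNA per cell in bulk samples. Estimated depth was 15500000 to 21600000 reads per library. The lowest estimates, 15500000 for B6 library 20 and 16000000 for NOD library 10, came from poor fits. Their mean squared misfit was 50.1 and 13.7, against 1.11 to 1.36 in the other libraries.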

How the data were processed

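RNA sequencing measured total RNA (TruSeq Standard Total RNA LT, per the labels' protocols) of sorted thymic Treg. The submitters' processing notes name Trimmomatic, STAR, DESeq2 and mm10; no version is printed, and nothing read here names the counter, the annotation or the strandedness. The deposited table holds, per the file headers, read counts scaled by library and rounded, entered as scores, and the authors' own log2 fold change with its error, p-values, mean and test statistic (scores). Columns were matched to strain by name and carry other numbers than the labels' replicates. No sample column was left unused.

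The filter asked for 10 normalized counts or more in 3 or more libraries (in 2 or more for fits with a library omitted) and kept 16442 genes. limma 3.58.1 (R 4.3.3) was fitted to log2(value + 1), with a term for strain alone and a trend, two-sided, with Benjamini-Hochberg adjustment over all tested genes and calls at an adjusted p below 0.05. Fold changes on this scale understate the change of low genes. Ratios were tested with exact permutation over libraries (scipy 1.17.1). Reads per library were estimated from the gaps and doublings that rounding leaves. The limma fit and the depth estimate were tested on simulated data, and the permutation test was not. Gene positions and exon lengths are from GENCODE M21. mm10 is the B6 genome, and the effect of NOD variants on the counts was not tested.

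Members and lists were chosen with earlier results of these data known. The genes named are all members, up to 3 higher and 3 lower called genes per list, and the gene nearest to each member. Other genes that did not pass the test, and Rel, Dusp1, Ier3, Stat6, Rcan1, Junb and single markers, were chosen after their values were seen. Alternatives were the pseudocount, the filter, rescaling, array weights and leaving out each library.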

Additional observations from a re-analysis of the deposited data

How the results depend on the processing

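Nr4a2 and Nr4a3 stayed lower and called in each alternative run: pseudocounts of 0.5 and 8, no filter, a filter of 50 (which drops Egr3), TMM rescaling, quantile normalization, array weights and each library left out. With array weights, which down-weight libraries that deviate, 6 members were called lower, Nr4a1 (-0.44), Egr2 (-0.79), Dusp2 (-0.47) and Dusp5 (-0.41) joining them, while 1434 of all genes were called lower and 1247 higher, against 871 and 755. Over the omission of each library, 2 to 4 members were called lower and 0 to 1 higher, 569 to 1011 of all genes lower (569 without B6 library 4) and 490 to 781 higher (490 without NOD library 18), and 4 to 15 genes of the related lists lower and 3 to 4 higher. The ratio of Egr3 to Egr2 (NOD minus B6) ran from -0.037 to 0.56 and reversed without NOD library 2 (-0.037). The log2 fold change of Egr1 ran from -0.15 to 0.23 and reversed without NOD library 18 (-0.15) or B6 library 20 (-0.0047). The cause was not tested. No paired analysis was possible because the columns carry other numbers than the labels' replicates. Egr3 rests on the fewest counts (22 to 37), and the part of counting error in the spread of the EGR factors was not tested.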
